A study of Capra hircus with 3 samples.

Results

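Tissue inhibitors of metalloproteinases and the matrix proteases they act on were followed in goat fetal gonad cells. The set holds 7 genes, TIMP1, TIMP2, TIMP3, MMP2, MMP14, MMP11 and ADAMTS1, and its members were found by exact match to the gene symbols of the count tables. All 7 were present among 27271 features, of which 16616 carry a symbol. They were selected on their UMI levels by class and library, with the TIMP2 difference at E105 against E85 already known, so the values below are descriptions of these libraries.

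The study profiled single cells of male goat (Capra hircus) fetal testis at 3 stages, given as days of embryonic life (E85, E105, E125). The testes were dissected, digested with collagenase IV, hyaluronidase, trypsin and DNase I, and loaded on a 10x droplet platform. No treatment or allele is named, and the labels do not say how many animals went into a library. There is 1 library per stage, so no difference between stages has a replicate check, no p-value can be given, and stage cannot be told apart from library or animal.

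TIMPs are small secreted proteins that block the active site of metalloproteinases. TIMP2 also takes part with MMP14, a membrane-anchored protease, in the activation of MMP2, a gelatinase that degrades basement-membrane collagen. TIMP3 stays bound to the matrix and also inhibits ADAMTS proteases. In the fetal testis, Sertoli cells are enclosed in cords by a basement membrane, with vessels and stromal cells between the cords.

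The deposited tables held 7478, 8520 and 8346 barcodes for E85, E105 and E125, with 45339231, 40741902 and 49692252 unique molecular identifiers (UMIs, counts of captured RNA molecules). After filtering 6328, 7069 and 7319 cells remained, and 5337, 6153 and 5373 of them were assigned to a class by a marker gate. A cell was assigned when at least 3 of 8 markers of a class (6 for Leydig cells) were detected and at least 2 more than of any other class. Class names carry "-like" since only transcripts define them. Pairs of libraries shared 9 to 14 barcodes. The library labelled E125 went against its label. Levels are given as CPM, the UMIs of a gene over all UMIs of the cells, times 1000000. AMH, the Sertoli hormone, was at 31.6 CPM over the kept cells of that library, against 3819 CPM at E105 and 1401 CPM at E85. ZP3, an oocyte coat gene, reached 2109 CPM in the library labelled E125, against 2.51 CPM at E105 and 1.14 CPM at E85. Comparisons with that library are therefore given apart, and the gated E105 and E85 values do not use it.

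Levels of a class are summed over its cells. Intervals in brackets are exact at 95% and cover counting error only, not variation between cells or animals. A ratio was taken where both libraries held at least 50 cells of a class and at least 20 UMIs of the gene together. At E105 and E85 this left the Sertoli-like cells (1993 and 2520 cells), the stromal-like cells (3506 and 2223), the endothelial-like cells (237 and 266), the macrophage-like cells (129 and 98) and the lymphoid-like cells (228 and 97). Median UMIs per cell in those classes were close in both libraries, at 9996 and 10301 in Sertoli-like cells and 2246.5 and 2071 in stromal-like cells at E105 and E85.

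Of 21 combinations of a member and a class that could be measured at E105 against E85, 8 were past 2-fold, and 5 of those 8 were TIMP2. Over all features measured, 7.95% were past 2-fold in Sertoli-like cells, 8.52% in stromal-like, 7.06% in endothelial-like, 10.1% in macrophage-like and 8.56% in lymphoid-like cells. The members were chosen with this contrast known, so these shares are printed for scale only. Higher levels alone made up 5.16%, 6.25%, 5.75%, 6.16% and 5.49% of features in the same order, and levels of at most 0.5 made up 3.96% in macrophage-like cells.

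**Figure D1:**
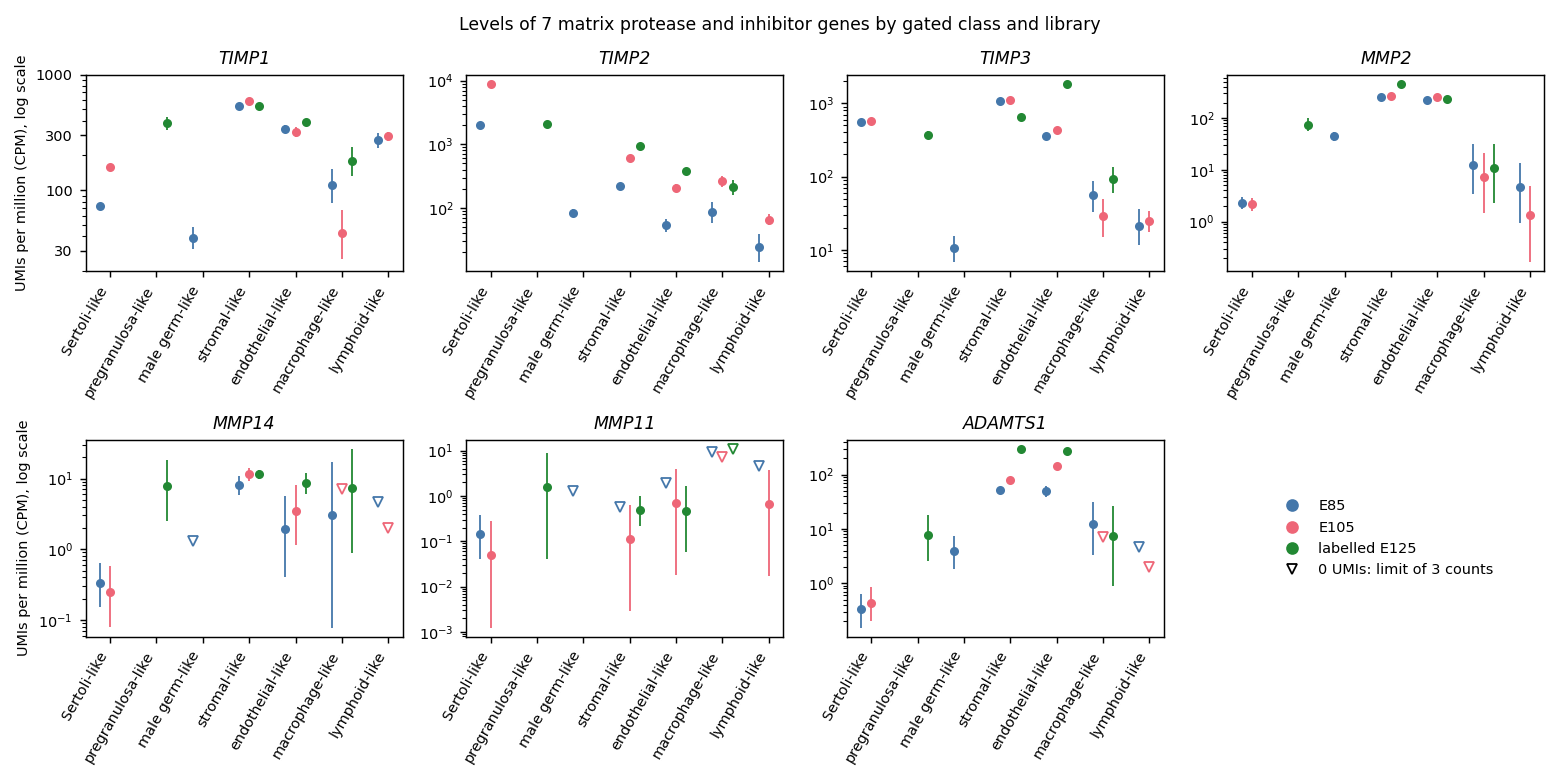
Level of each of the 7 genes (CPM, log axis, scale differs by panel) in gated classes with at least 50 cells. Points are 1 library each in the order E85, E105, E125, bars are exact 95% Poisson intervals, and open triangles mark the limit that 0 UMIs allow (3 counts). TIMP2 is highest in Sertoli-like cells at 8987 CPM at E105, whereas MMP2 and ADAMTS1 are highest in stromal-like or endothelial-like cells.

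TIMP2 was highest in Sertoli-like cells, where it made up most of the TIMP UMIs. Its level there was 8987 CPM (8946 to 9028) at E105 and 2008 CPM (1991 to 2024) at E85, a ratio of 4.48 (4.43 to 4.52). After each cell was thinned to 1000 UMIs, a depth all kept cells reached, 99.3% of Sertoli-like cells at E105 had a TIMP2 UMI, against 80.7% at E85. Without thinning the shares were 99.9% and 99.7%. In lymphoid-like cells, with median depths of 5878 and 5866 UMIs at E105 and E85, the thinned shares were 5.26% and 2.06%. The ratio was much the same in each of 3 Sertoli-like clusters, at 4.44 in the largest, 4.80 in the TNNI1-led cluster and 4.42 in the dividing AURKB-led cluster. TIMP2 made up 92.5% of all TIMP UMIs of Sertoli-like cells at E105 and 76.2% at E85.

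Every other measured class also held more TIMP2 at E105 than at E85, at lower levels. The Leydig-like cluster, under the minimum of 50 cells, had 5435 CPM at E105 (24 cells) and 1156 CPM at E85 (18 cells). Stromal-like cells had 600.0 CPM at E105 and 217.5 CPM at E85, a ratio of 2.76 (2.59 to 2.94). Endothelial-like cells had 209 and 53.4 CPM at E105 and E85, a ratio of 3.91 (3.05 to 5.06). Macrophage-like cells had 261 and 85.9 CPM at E105 and E85, a ratio of 3.04 (1.99 to 4.78). Lymphoid-like cells were lowest, with 65.6 and 24.4 CPM at E105 and E85, a ratio of 2.69 (1.57 to 4.88). The 5 ratios lay between 2.69 and 4.48, and the interval of macrophage-like and of lymphoid-like cells reached below 2.

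By the rule that a gene is library-wide when it is past 2-fold in the same direction in every measured class, TIMP2 was the 1 member so called. Of 7375 features measured in at least 3 classes at E105 and E85, 65 (0.881%) were at least 2-fold higher in every class and 5 (0.0678%) were at most 0.5 of their level. A class-specific shift was one past 2-fold in 1 class with the median of the others within 1.5-fold, as found for 12.3% of the features. TIMP1, TIMP3 and MMP2 did not meet that rule, and MMP14, MMP11 and ADAMTS1 were measured in under 3 classes and could not be judged by it. Among 2975 features measured in all 5 classes, TIMP2 ranked 10 by its smallest ratio. The features with a symbol above it were ITM2B, CREBZF, SMAP1, JUN, NENF and BTG1, of which JUN is known as an immediate-early response gene. The median log2 ratio over all features lay between -0.05 and 0.11 in the 5 classes, against 1.43 to 2.16 for TIMP2.

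**Figure D2:**
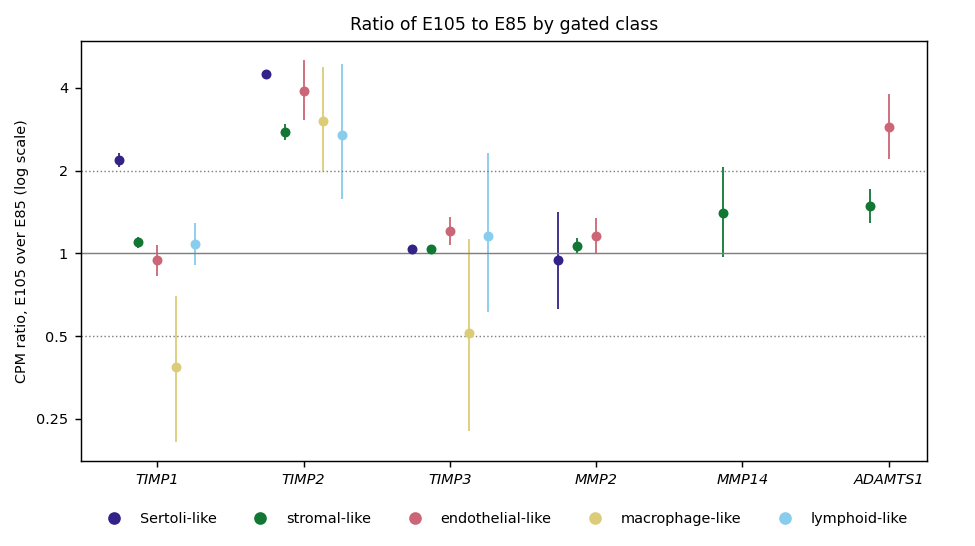
Ratio of CPM at E105 over E85 (log axis) for each member and gated class with at least 20 UMIs over both libraries. Points are ratios, bars are exact 95% intervals for counting error, the solid line marks 1 and dotted lines mark 2 and 0.5. The 5 TIMP2 points lie above 2, the TIMP3 and MMP2 points of Sertoli-like, stromal-like and endothelial-like cells lie near 1, and TIMP1 and ADAMTS1 depart from 1 in some classes.

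Droplets also take up free RNA, and Sertoli RNA was plentiful, so the TIMP2 level was set beside AMH, which stromal, endothelial and blood cells should lack. AMH stood at 173 and 58.2 CPM in stromal-like cells, 40.8 and 18.2 CPM in endothelial-like cells, 114 and 36.8 CPM in macrophage-like cells and 34.2 and 29.0 CPM in lymphoid-like cells at E105 and E85. Sertoli-like cells held 1.32 TIMP2 UMIs per AMH UMI at E105 and 0.931 at E85. Stromal-like cells held 3.47 and 3.74 TIMP2 UMIs per AMH UMI at E105 and E85, and endothelial-like cells 5.12 and 2.93. Macrophage-like cells held 2.29 and 2.33, so these classes were above the Sertoli-like figure in both libraries. Lymphoid-like cells held 1.92 at E105, above it, and 0.842 at E85, below it.

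Taking away the TIMP2 that would come with that AMH left 372 CPM at E105 and 163 CPM at E85 in stromal-like cells, a ratio of 2.28. In endothelial-like cells 155 and 36.4 CPM were left at E105 and E85, a ratio of 4.26. In whole endothelial-like clusters 99.9 and 38.4 CPM were left, a ratio of 2.60, and the TIMP2 ratio there before this step was 2.11. In macrophage-like cells 111 and 51.7 CPM were left, a ratio of 2.15. In lymphoid-like cells 20.7 CPM was left at E105 and nothing at E85, where the 2 quantities differed by -2.57 CPM. When whole clusters were used in place of gated cells, 0.0101 and 16.7 CPM were left in lymphoid-like clusters at E105 and E85. Lymphoid-like clusters thus had no more left at E105 than at E85. In macrophage-like clusters -237 and -8.32 CPM were left at E105 and E85. They held 94.5 TIMP2 UMIs per 100 AMH UMIs at E105, against 131.6 in Sertoli-like clusters. More was thus taken away than they held, so their E105 and E85 values cannot be compared after this step. The clusters also take in cells that the gate left out.

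**Figure D3:**
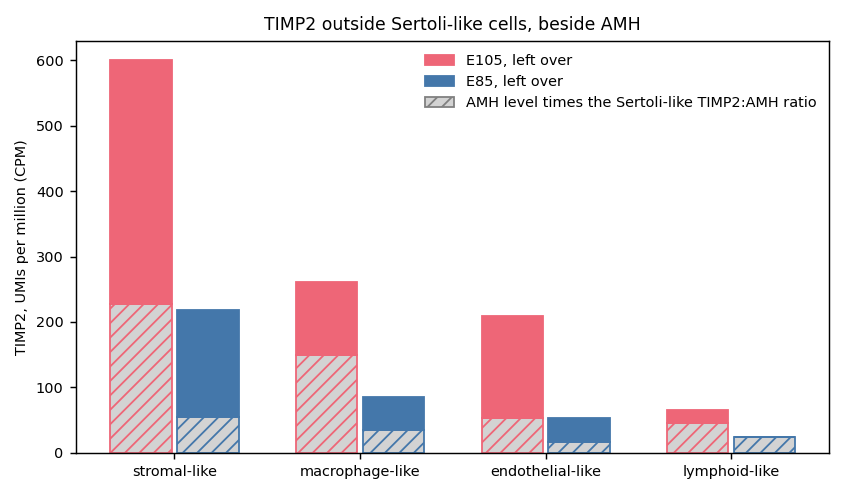
TIMP2 level (CPM) in 4 gated classes outside Sertoli-like cells, E105 left of E85. The hatched part is the AMH level of the class times the TIMP2 to AMH ratio of Sertoli-like cells of the library, and the solid part is what is left, 372 and 163 CPM in stromal-like cells at E105 and E85.

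The stromal-like value rested in part on a few cells. At E105, 24 gated stromal-like cells (0.685% of the class) fell in an INHA-led cluster, which was otherwise Sertoli-like, and they carried 18.8% of the TIMP2 UMIs of the class at 5435 CPM. At E85, 6 such cells carried 7.10% at 1654 CPM. With cells kept only where gate and cluster both said stromal, TIMP2 was 493 CPM at E105 and 213 CPM at E85, a ratio of 2.31 (2.16 to 2.48). Within single stromal-like clusters it was 2.27 in the CCN3-led cluster, 2.19 in the TAC1-led cluster, 2.29 in the DTL-led cluster and 2.10 in the H1-5-led cluster.

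Endothelial-like TIMP2 was uneven in the same way. In the PNOC-led cluster, which held most of the class, TIMP2 was 124.6 CPM at E105 and 47.0 CPM at E85, a ratio of 2.65 (1.96 to 3.62). Another 5 cells, of a CCL21-led cluster, had 3566 CPM (2966 to 4252) and carried 41.8% of the endothelial-like TIMP2 UMIs at E105. The leading genes of that cluster include FLT4 and PROX1, which are known from lymphatic vessels. In the library labelled E125, 39 cells of the cluster had 3553 CPM (3358 to 3756) and carried 75.7% of the TIMP2 UMIs of the class, while 541 cells of the main CA4-led cluster had 102 CPM. The intervals of the CCL21-led cells overlapped between these libraries.

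Male germ-like cells were under 50 in the gate at E105 and were read from a cluster led by germ cell genes (STK31, DAZL, DDX4). The 96 cells at E105 had 613 CPM of TIMP2 and the 261 cells at E85 had 183 CPM, a ratio of 3.35 (3.07 to 3.66). AMH in these cells was 186 CPM at E105 and 104 CPM at E85, and 368 and 86.4 CPM of TIMP2 were left after its share was taken away. Gated germ-like cells had lower TIMP2, with 316 CPM at E105 (33 cells) and 84.7 CPM at E85 (115 cells). Their AMH was lower too, at 24.2 and 8.74 CPM, and 284 and 76.6 CPM of TIMP2 were left. Mural-like clusters, of 77 cells in each library, had 801 CPM at E105 and 100.5 CPM at E85, and AMH there was 436 and 47.6 CPM. What was left was 228 CPM at E105 and 56.2 CPM at E85. Over all features the share past 2-fold was 8.43% in the germ clusters and 11.5% in the mural clusters.

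TIMP1, a secreted inhibitor, had another distribution. Among gated classes with at least 50 cells, stromal-like cells were highest. They had 535, 587 and 534 CPM at E85, E105 and in the library labelled E125. Mural-like clusters had 846, 667 and 652 CPM in the same order, against 559, 604 and 548 CPM in stromal-like clusters. Endothelial-like cells had 339, 319.7 and 386 CPM in the same order, and lymphoid-like cells had 270.3 and 292 CPM at E85 and E105. The intervals of endothelial-like and lymphoid-like cells overlapped at E85 and at E105, while stromal-like cells stood apart from both. In the library labelled E125, 41 mesothelial-like cells, under the minimum of 50, had 893 CPM.

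Sertoli-like cells held less TIMP1, with 159 CPM at E105 and 72.8 CPM at E85, a ratio of 2.18 (2.06 to 2.31). Within single clusters the ratio was 2.28 in the largest, 2.27 in the TNNI1-led and 1.79 in the AURKB-led cluster. The ratio was 1.10 (1.05 to 1.15) in stromal-like cells, 0.943 (0.830 to 1.07) in endothelial-like cells and 1.08 (0.905 to 1.29) in lymphoid-like cells, so the class with a 2-fold higher level was Sertoli-like. Macrophage-like cells went the other way, with 42.7 CPM at E105 and 111 CPM at E85, a ratio of 0.387 (0.207 to 0.699), but from 18 and 36 UMIs. In macrophage-like clusters the ratio was 0.682 (0.394 to 1.18).

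TIMP3, the matrix-bound inhibitor, was close to level at E105 and E85 in the main classes. Stromal-like cells had 1114 and 1071 CPM at E105 and E85, a ratio of 1.04 (1.01 to 1.08). Sertoli-like cells had 571 and 553 CPM, a ratio of 1.03 (1.01 to 1.06). Endothelial-like cells had 429 and 357 CPM, a ratio of 1.20 (1.07 to 1.35). TIMP3 ranked stromal, Sertoli and endothelial in both libraries, with intervals that did not overlap, and it was at 21.4 to 55.3 CPM in macrophage-like and lymphoid-like cells. In the small ITGA7-led mural cluster it reached 1431 CPM at E105 and 1116 CPM at E85.

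Among gated classes with at least 50 cells, MMP2 was highest in stromal-like and endothelial-like cells. It was at about 2 CPM in Sertoli-like cells at E105 and E85. Stromal-like cells had 274 and 257 CPM at E105 and E85, a ratio of 1.06 (0.996 to 1.14). Endothelial-like cells had 254 and 221 CPM, a ratio of 1.15 (0.992 to 1.34), and the intervals of these 2 classes overlapped in both libraries. Sertoli-like cells had 2.15 and 2.28 CPM. Beside stromal RNA in the same droplets, Sertoli-like cells held 5.02 MMP2 UMIs per 100 stromal marker UMIs at E105 and 6.01 at E85, against 2.76 and 3.21 in stromal-like cells. A Schwann-like cluster of 84 cells in the library labelled E125 had 400 CPM (325 to 486) of MMP2. Stromal-like clusters there had 468 CPM, endothelial-like clusters 236 CPM and the FST-led cluster 93.4 CPM.

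In germ-like cells MMP2 was high for the stromal RNA in them. The germ cluster had 45.0 CPM at E105 and 45.2 CPM at E85, a ratio of 0.995 (0.764 to 1.28). It held 17.9 and 19.3 MMP2 UMIs per 100 stromal marker UMIs at E105 and E85, against 2.77 and 3.22 in stromal-like clusters. Macrophage-like and lymphoid-like cells had 2 to 4 MMP2 UMIs each, too few for a ratio.

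MMP14, the membrane-anchored activator of MMP2, was rare. Stromal-like cells had 11.4 CPM (9.29 to 13.9) at E105 and 8.11 CPM (5.85 to 10.97) at E85, and 11.6 CPM in the library labelled E125. The E105 to E85 ratio was 1.41 (0.972 to 2.07). Germ-like and lymphoid-like cells had 0 UMIs, which allow up to 1.31 CPM in germ-like cells at E85 and up to 2.01 CPM in lymphoid-like cells at E105. MMP11, also called stromelysin 3, had 4, 6 and 22 UMIs in the whole E85, E105 and E125 libraries, and no class held enough of it for a ratio.

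ADAMTS1, a protease of versican and aggrecan, was higher at E105 in endothelial-like cells, and in stromal-like cells its level differed between clusters. Endothelial-like cells had 143 and 49.5 CPM at E105 and E85, a ratio of 2.88 (2.21 to 3.81), and within the PNOC-led cluster alone the ratio was 2.93 (2.21 to 3.92). Stromal-like cells had 78.9 and 52.9 CPM, a ratio of 1.49 (1.29 to 1.72). Sertoli-like cells had 9 UMIs in each library.

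Within the CCN3-led and TAC1-led clusters the stromal-like difference was not seen. In the CCN3-led cluster ADAMTS1 was 43.2 CPM at E105 and 48.3 CPM at E85, a ratio of 0.895 (0.708 to 1.13). In the TAC1-led cluster it was 113 CPM at E105 and 149 CPM at E85, a ratio of 0.758 (0.550 to 1.07). The TAC1-led cluster, with the higher level, held 50.8% of stromal-like cells at E105 and 5.71% at E85, and the CCN3-led cluster held 37.3% and 79.3%. In the DTL-led cluster the ratio was 1.04 (0.606 to 1.80), from 36 and 25 UMIs. In the H1-5-led cluster the ratio was 2.51 (0.914 to 8.56), from 20 and 5 UMIs. The part of the cluster mix in the stromal-like ratio was not tested. Levels of 10 genes known as immediate-early response genes (FOS, FOSB, JUN, JUNB, EGR1, ATF3, IER2, DUSP1, BTG2 and NR4A1) summed to 1266 and 647 CPM in endothelial-like cells and to 289.5 and 144 CPM in stromal-like cells at E105 and E85. Their part in the ADAMTS1 difference was not tested.

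**Figure D4:**
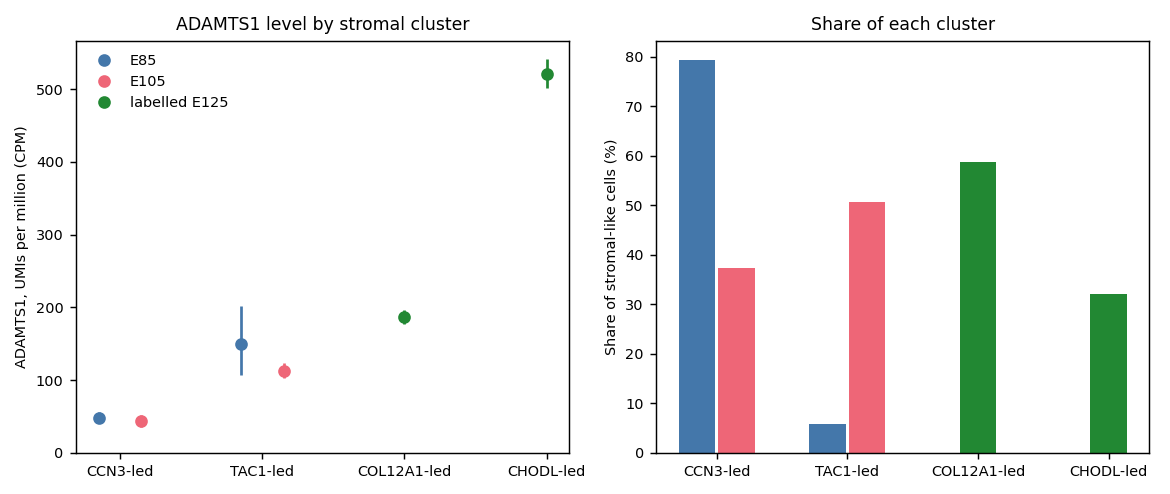
ADAMTS1 level (CPM, left, with exact 95% Poisson intervals) and the share of stromal-like cells (percent, right) in the 4 largest stromal clusters, named by their leading gene. CCN3-led and TAC1-led cells come from E85 and E105, and COL12A1-led and CHODL-led cells from the library labelled E125. The ADAMTS1 intervals of E105 and E85 overlap within the CCN3-led and within the TAC1-led cluster, while the shares of these clusters differ.

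The balance of proteases to inhibitors was taken as the percent of protease UMIs (MMP2, MMP14, MMP11 and ADAMTS1) in the UMIs of all 7 members, without length correction. In Sertoli-like cells it was 0.0297% at E105 and 0.117% at E85. In stromal-like cells it was 13.7% at E105 and 14.9% at E85, and in endothelial-like cells 29.5% and 26.6%. Gated male germ-like cells at E85 were also at 26.6%. The order was the other way in the library labelled E125, with 26.5% in stromal-like and 16.5% in endothelial-like cells. The inhibitors thus outnumbered the proteases in UMIs in every class with at least 50 cells.

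Levels of the library labelled E125 were set against E105 for the 3 classes with at least 50 cells in both, and 5 of 15 combinations of a member and a class were past 2-fold. Over all features 33.6% were past 2-fold in stromal-like, 22.6% in endothelial-like and 23.5% in macrophage-like cells. TIMP2 was past 2-fold in none of the 3 gated classes. In whole clusters its level was below 0.5 of that at E105 in macrophage-like, mural-like and lymphoid-like cells. Macrophage-like clusters had 259 CPM in the library labelled E125 and 604 CPM at E105, a ratio of 0.428 (0.318 to 0.568). The ratio was 0.453 in mural-like and 0.238 in lymphoid-like clusters. AMH in macrophage-like, mural-like and lymphoid-like clusters was 639, 436 and 383 CPM at E105. It was 0, 6.85 and 0 CPM in the library labelled E125. With the AMH share taken away, -237, 228 and 0.0101 CPM of TIMP2 were left at E105. The ratios were taken before this step. Of 3377 features measured in all 3 classes 3.11% were at least 2-fold higher in every class, 1.48% were at most 0.5 and 17.2% were class-specific. TIMP1 was the member in the last group, through macrophage-like cells. TIMP2 was 927 CPM in the library labelled E125 and 600.0 CPM at E105 in stromal-like cells, a ratio of 1.54 (1.497 to 1.59). In stromal-like clusters the ratio was 1.85 (1.79 to 1.92). AMH in the gated stromal-like cells was 2.85 CPM in the library labelled E125 and 173 CPM at E105. With its share taken away, 372 CPM of TIMP2 was left at E105. TIMP2 reached 2069 CPM in 77 pregranulosa-like cells, of which 65 lay at the edge of the gate, and 2242 CPM in 641 cells of the FST-led cluster.

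TIMP3 differed in opposite ways in vessels and stroma. Endothelial-like cells had 1825 CPM in the library labelled E125 and 429 CPM at E105, a ratio of 4.25 (3.91 to 4.62). Stromal-like cells had 652 CPM and 1114 CPM, a ratio of 0.585 (0.569 to 0.601). The CA4-led cluster of the library labelled E125 had 1871 CPM and the PNOC-led cluster at E105 had 418 CPM. Each held most of the class in its library, so these values repeat the class difference. The CA4/VWF-led cluster had 1515 CPM (1376 to 1664) from 27 cells in the library labelled E125. At E105 it had 392 CPM (300 to 503) from 19 cells. The 12 PNOC-led cells in the library labelled E125 had 992 CPM (687 to 1386). Mural-like clusters were also higher, with 2532 CPM (2418 to 2651) in the library labelled E125 and 1431 CPM at E105. Their ratio was 1.77 (1.58 to 1.98). Whole endothelial-like clusters had 1851 CPM in the library labelled E125, below the mural-like level.

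**Figure D5:**
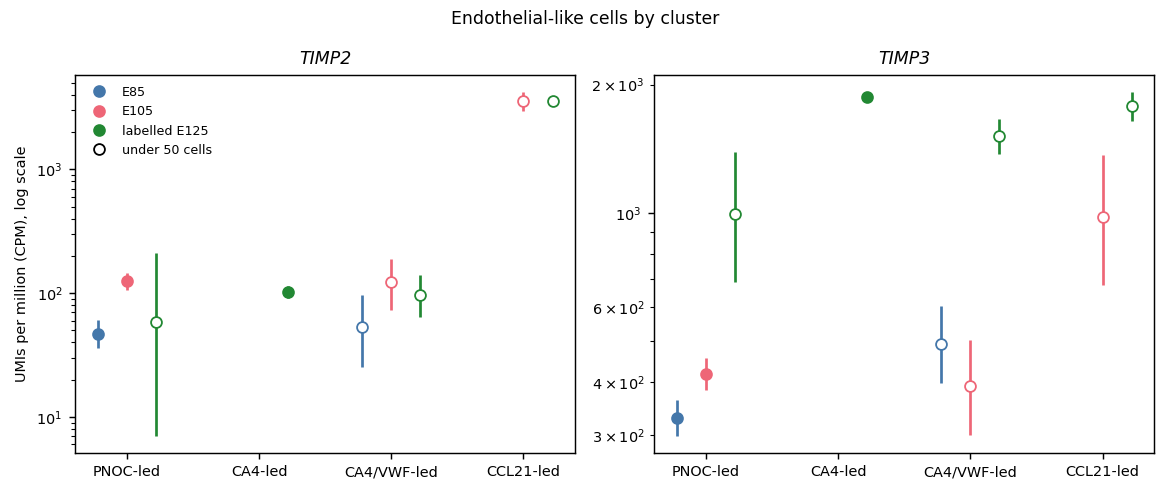
TIMP2 (left) and TIMP3 (right) levels (CPM, log axis) in clusters of endothelial-like cells, named by leading genes, with exact 95% Poisson intervals. Points are libraries in the order E85, E105, E125, and open points have under 50 cells. TIMP2 is at 3566 and 3553 CPM in CCL21-led cells and at 47.0 to 124.6 CPM in the others, while TIMP3 is at 992 to 1871 CPM in all 4 clusters of the library labelled E125.

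ADAMTS1 in stromal-like cells was 292 CPM in the library labelled E125 and 78.9 CPM at E105, a ratio of 3.69 (3.41 to 4.01). The CHODL-led cluster there had 521 CPM and the COL12A1-led cluster 187 CPM. Endothelial-like cells had 274 and 143 CPM of ADAMTS1, a ratio of 1.92 (1.65 to 2.24). In whole clusters the ratio was 2.06 in endothelial-like, 2.21 (1.37 to 3.74) in mural-like and 8.53 in lymphoid-like cells, the last from 17 and 13 UMIs. MMP2 in stromal-like cells was 457 CPM and 274 CPM, a ratio of 1.67 (1.60 to 1.75). The immediate-early genes summed to 706 CPM in stromal-like cells of the library labelled E125, and their part was not tested there either. Macrophage-like TIMP1 was 179 CPM from 49 UMIs in the library labelled E125, against 42.7 CPM from 18 UMIs at E105. MMP14 in endothelial-like cells was 8.61 CPM and 3.51 CPM, a ratio of 2.45 (0.961 to 7.99) that includes 1.

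Other proteases, inhibitors and matrix proteins were read in stromal-like cells, the largest class over the 3 libraries. At E105 against E85, 0 of 4 measured matrix metalloproteinases were past 2-fold, beside 8.52% of all features (6.25% higher and 2.27% at most 0.5). Of 12 ADAMTS proteases 3 were higher and none lower, and of 5 ADAM family genes none was past 2-fold. Of 13 inhibitors and activators 2 were higher, TIMP2 and PCOLCE, an enhancer of procollagen processing, with 239 and 97.4 CPM at E105 and E85. Of 10 substrates 2 were higher, among them COL1A1, a chain of type I collagen and also a marker used in the gate, with 944 and 431 CPM.

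In the library labelled E125 against E105 the same lists were more mixed, beside 33.6% of all features (17.4% higher and 16.2% at most 0.5). Of 15 ADAMTS proteases 5 were higher and 4 lower, among them ADAMTS7 with 36.8 CPM and 83.9 CPM. Of 14 inhibitors and activators SERPINE2, an inhibitor of plasminogen activators and thrombin, was higher with 73.0 CPM and 2.60 CPM, and TFPI2, a serine protease inhibitor of the matrix, was lower with 240.3 CPM and 733 CPM. Of 11 substrates 5 were higher, COL4A1 and COL4A2 among them with 186 and 187 CPM in the library labelled E125, against 79.6 and 64.3 CPM at E105. BGN, a small proteoglycan, was lower with 241 CPM and 614 CPM. Of 6 matrix metalloproteinases 2 were higher and 1 lower. Of 9 ADAM family genes 2 were higher, ADAM22 and ADAM23, both under 50 CPM.

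Genes with the most similar levels were found over 15 points of class and library among 4388 genes. TIMP3 was nearest to SPARC, a collagen-binding matrix protein (Pearson r 0.965), CREB3L2 (0.956) and IGFBP7 (0.937). MMP2 was nearest to NR2F2, a nuclear receptor of stroma and veins (0.966), GLCE (0.955) and CACHD1 (0.953). TIMP2 was nearest to FARS2 (0.917), JAM3 (0.888) and SLC25A4 (0.886), and TIMP1 to COMMD1 (0.914), EIF4B (0.901) and FLNA (0.877). ADAMTS1 was nearest to RASSF9 and TGFBR3 (both 0.955) and CACHD1 (0.934). The points share libraries and depth, and no test was made of these values.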

How the data were processed

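Whole-number UMI counts per feature and barcode were deposited by the authors as filtered matrices from Cell Ranger, version 6.0.0 per the file headers and 3.1 per the submitters' processing notes. The build, annotation and strand setting were not given in the sources used here. In the RefSeq table of assembly ARS1.2, TIMP1 overlaps SYN1 and CT55, TIMP2 overlaps CEP295NL and TIMP3 overlaps SYN3. SYN1 was at most 5.24 CPM in any class used, and the other partners had no feature under their symbol. No sequence is shown, because none was available here.

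Cells were kept with at least 1000 UMIs and 500 genes, where 13 mitochondrial genes gave no more than 20% of the UMIs. Doublet scores were computed with Scrublet, but no cell was removed by them except in the alternative named below. The gate left out cells whose best class led by fewer than 2 markers, so some mixed cells can remain. Counts were summed per class and library, and exact Poisson, binomial and Clopper-Pearson intervals were computed with Python 3.11.15 and scipy 1.17.1. Leiden clusters (scanpy 1.11.5, 3000 variable genes without the members, 30 components, 15 neighbours, resolution 1) gave an alternative to the gate. Ratio calls were tested on simulated counts. The members, gene lists and markers were chosen with earlier results of these data known. All members were named, with the 3 most similar genes of each (at least 50 CPM in a class) and up to 4 genes per list past 2-fold with at least 50 CPM. Alternatives were a stricter cell filter, a stricter gate, clusters, median-ratio scaling, means over cells, thinning and removal of the top 6% of doublet scores. Marker-checked clusters, single clusters and removal of Sertoli RNA were added after seeing the data.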

Additional observations from a re-analysis of the deposited data

Results flagged for a closer look

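The TIMP3 difference between the library labelled E125 and E105 had opposite signs in 2 pairs of gated classes, and the difference between classes was not tested because there is 1 library per stage. The log2 ratio in endothelial-like cells exceeded that in stromal-like cells by 2.86. The log2 ratio in macrophage-like cells exceeded that in stromal-like cells by 2.45, but the macrophage-like value rests on 25 UMIs in the library labelled E125 and 12 UMIs at E105. In whole clusters macrophage-like TIMP3 had 8 and 50 UMIs in the library labelled E125 and at E105, a ratio of 0.313 (0.128 to 0.665), against 0.578 in stromal-like clusters, so both were lower and the difference between them had the other sign.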

How the results depend on the processing

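Of 326 values recomputed under other settings, 313 kept their direction, 78 moved beyond their counting interval and 13 turned round. Leaving aside Sertoli RNA removal in whole clusters, TIMP2 at E105 against E85 was over 2-fold in all 5 classes wherever a ratio was given. The lowest ratio was 2.10 in stromal-like cells and the highest 5.20 in endothelial-like cells. Removal of Sertoli RNA left nothing at E85 to compare with in gated lymphoid-like cells. In whole lymphoid-like clusters no more TIMP2 was then left at E105 than at E85. In whole macrophage-like clusters the values left were negative and could not be compared. No paired analysis was possible because each stage has 1 library. Leaving out a replicate was not possible for the same reason.

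The values that turned round, as log2 ratios at E105 against E85, were ADAMTS1 in stromal-like cells within the CCN3-led cluster (-0.16) and the TAC1-led cluster (-0.40), TIMP1 in stromal-like cells within the DTL-led (-0.027) and H1-5-led clusters (-0.15), and TIMP3 in stromal-like cells within the CCN3-led (-0.048), DTL-led (-0.12) and TAC1-led clusters (-0.087). Median-ratio scaling turned TIMP3 to -0.012 in Sertoli-like and -0.00028 in stromal-like cells. For the library labelled E125 against E105, TIMP1 in stromal-like cells was 0.027 with class by cluster, TIMP3 in stromal-like cells was 0.42 within the CKAP2-led cluster, and TIMP3 in macrophage-like cells was -1.68 with either cluster rule. Class by cluster put clusters led by mural and immune genes among the stromal-like cells. The cause of the other turns was not tested.

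The number of combinations past 2-fold was 5 at E105 against E85 and 2 in the library labelled E125 against E105 with cells thinned to 1000 UMIs, where fewer combinations reached 20 UMIs, and 3 in the second comparison with the stricter cell filter. With the top 6% of doublet scores removed, TIMP2 was past 2-fold in 1 class in that comparison. With no minimum of UMIs, 26.5% of features in stromal-like cells were past 2-fold at E105 against E85. Depth limits MMP14 and MMP11, which had 296 and 22 UMIs at most in a library.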
